A study of Mus musculus with 25 samples.

Results

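The genes described here are 10 products of Sertoli cells, the somatic cells that line the seminiferous tubule and hold the developing germ cells: Clu, Sparc, Defb19, Defb36, Wfdc10, Ctsl, Aard, Amhr2, Wt1 and Sox9. They were chosen by name, and all 10 were present among the 29244 gene names of the deposited Drop-seq count tables from mouse testis. Drop-seq captures single cells in droplets and counts unique molecular identifiers (UMIs), short random tags that stand for single captured RNA molecules. Levels are given as CPM, the UMIs of a gene per 1000000 UMIs of the library or cell class. Because a UMI stands for 1 molecule read from its 3′ end, levels were not divided by transcript length.

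Sertoli cells nurse germ cells through the blood-testis barrier and release proteins into the tubule and the interstitium. Clusterin (Clu) is a secreted chaperone, and Sparc is a secreted glycoprotein that binds collagen and other matrix proteins. Defb19 and Defb36 encode beta-defensins, small secreted peptides of innate defence, and Wfdc10 encodes a protein with a whey acidic protein domain, a fold shared with secreted protease inhibitors. Cathepsin L (Ctsl) is a lysosomal cysteine protease that Sertoli cells also release. Aard encodes an alanine- and arginine-rich domain protein. Amhr2 is the receptor for anti-Müllerian hormone, Wt1 is a zinc finger transcription factor required for the gonad, and Sox9 is the HMG-box transcription factor that directs Sertoli cell differentiation in the fetal testis.

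The data are 25 libraries of the study. Whole testis came from 11 wild-type C57BL/6 libraries, 6 Mlh3-/- and 2 Cul4a-/- libraries labelled B6;129, and 2 libraries of the transgenic line CNP eGFP BAC TRAP on C57BL/6. Wild-type libraries came from males of 3 months 1 day to 9 months 14 days, Mlh3-/- from 2 months 21 days to 8 months 30 days, Cul4a-/- from 1 month 18 days and 1 month 21 days, and CNP from 2 months 14 days and 2 months 16 days, all as labelled. The study's own list of libraries gives the Cul4a-/- and CNP ages the opposite way round, and its methods write the Mlh3 line as B6.129, so these ages and the shared background are uncertain. Wild-type libraries 1 and 2 were dissociated with enzymes and all other whole-testis libraries mechanically. The 4 remaining libraries were sorted cells: EGFP-positive spermatogonia of Pouf51-EGFP mice (the label's spelling, which the study's methods do not share) at 7 days, pooled from littermates, and primary spermatocytes, secondary spermatocytes and spermatids sorted by Hoechst staining from wild-type testis at 2 months 21 days. MLH3 is required for meiotic crossovers and CUL4A is a ubiquitin ligase scaffold. Genotype and strain background cannot be told apart where Mlh3-/- or Cul4a-/- testes are compared with wild-type testes.

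Whole-testis libraries held 357235 to 9745302 UMIs (median 2576385) in 102 to 4261 barcodes, and sorted libraries 107117 to 1168498 UMIs. Of 48642 barcodes, 36619 passed the filters on UMIs, genes and mt-Rnr2, a mitochondrial RNA that is high in damaged cells. Among 48081 distinct barcodes 430 occurred in more than 1 library, 6 of them in Sertoli-like cells. The study describes the wild-type libraries as separate animals. For the other strains nothing beyond the ages says so, and Mlh3-/- libraries 2 and 3 carry the same age, so p-values measure the spread between libraries. With these 2 summed into 1, the counts of members called in whole libraries did not change. Intervals on counts are exact 95% intervals and cover counting error only.

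The 10 genes lie on 5 chromosomes of GRCm38. Clu was annotated at chr14:65968483-65981547 on the plus strand, Sparc at chr11:55394500-55423183 on the minus strand and Ctsl at chr13:64359337-64370890 on the minus strand. The beta-defensin genes are neighbours, Defb19 at chr2:152576086-152580312 on the minus strand and Defb36 at chr2:152604327-152612729 on the plus strand, with 24014 bases between them. Wfdc10 at chr2:164656046-164657368 and Wt1 at chr2:105126529-105173616 are on the plus strand of the same chromosome. Aard at chr15:52040107-52045722, Amhr2 at chr15:102445367-102454633 and Sox9 at chr11:112782224-112787760 are on the plus strand. Wfdc10 overlaps Wfdc9 on the other strand, which had 44 UMIs in all libraries, and Defb36 overlaps Gm14163 on its own strand, which had 9. Ctsl overlaps Gm49230 on its own strand and Gm47123 on the other, neither of which had a row in the count tables.

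Promoters are shown because the 10 genes were all higher in 1 mutant strain, so that their upstream sequence can be read beside their levels. RefSeq promoter sequence (GRCm38.p6, the 250 bases before the start) was at hand for 5 of the 10 genes. For Ctsl and Sparc the start used there lay inside the annotated gene given above, so their sequence was not used. The other 3 are printed 5′ to 3′ on the strand of the gene, with a searched motif in capitals.
Defb36, chr2:152604077-152604326: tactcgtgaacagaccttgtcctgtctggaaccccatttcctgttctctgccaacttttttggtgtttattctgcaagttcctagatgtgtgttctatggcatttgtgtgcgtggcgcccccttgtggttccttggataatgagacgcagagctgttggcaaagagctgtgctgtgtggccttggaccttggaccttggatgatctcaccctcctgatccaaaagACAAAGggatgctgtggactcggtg
Wfdc10, chr2:164655796-164656045: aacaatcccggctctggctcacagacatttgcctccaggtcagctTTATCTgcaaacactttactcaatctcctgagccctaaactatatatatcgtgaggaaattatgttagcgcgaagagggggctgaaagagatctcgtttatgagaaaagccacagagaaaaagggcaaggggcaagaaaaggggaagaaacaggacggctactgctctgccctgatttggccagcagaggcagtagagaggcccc
Amhr2, chr15:102445117-102445366: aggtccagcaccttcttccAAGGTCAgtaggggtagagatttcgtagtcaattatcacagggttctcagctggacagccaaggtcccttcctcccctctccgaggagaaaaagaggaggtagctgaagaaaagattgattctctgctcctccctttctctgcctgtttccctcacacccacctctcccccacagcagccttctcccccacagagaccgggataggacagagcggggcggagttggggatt
The motifs searched on both strands were ACAATG and ACAAAG, the core letters bound by SOX proteins, AAGGTCA for NR5A1, AGATAA for GATA factors and TATAAA, the TATA box. Defb36 held ACAAAG 25 bases before its start, Wfdc10 held AGATAA on the opposite strand at 205 bases and Amhr2 held AAGGTCA at 231 bases. Over 32851 promoters of the same length, 16.5% held ACAAAG, 10.7% ACAATG, 9.99% AGATAA, 4.08% AAGGTCA and 12.4% TATAAA. None of the 3 held ACAATG or TATAAA. Clu, Defb19, Aard, Wt1 and Sox9 had no promoter entry.

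Cells were clustered with the 10 genes left out, and clusters were named from other markers. Sertoli markers such as Cst12, Cst9, Ldhb and Gstm6 are key genes of a Sertoli component that the study drew from these data. Aard, Defb36 and Wfdc10 are key genes of the same component, so their level in Sertoli-like cells is not independent of the naming. The 21 whole-testis libraries gave 362 Sertoli-like cells (97 wild-type, 178 Mlh3-/-, 79 Cul4a-/- and 8 CNP) with a median of 878.5 UMIs per cell. The 10 genes summed to 12690.1 CPM there, to 7605 CPM in Leydig-like cells, and to between 162 and 899 CPM in the named germ cell classes. In Sertoli-like cells the pooled level was 3321 CPM for Clu (95% interval 3167 to 3482), 2526 for Defb19 (2391 to 2666) and 1863 for Ctsl (1748 to 1984). Aard reached 1345 CPM, Sparc 1266, Amhr2 822, Defb36 692 and Wfdc10 551. The transcription factors Wt1, at 207 CPM, and Sox9, at 96.0 CPM, were the lowest of the 10. Together the 10 genes gave a median of 1.02% of the UMIs of a Sertoli-like cell. The anti-Müllerian hormone gene Amh itself was at 0 in the Sertoli-like cells of every strain with a fitted group.

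**Figure D1:**
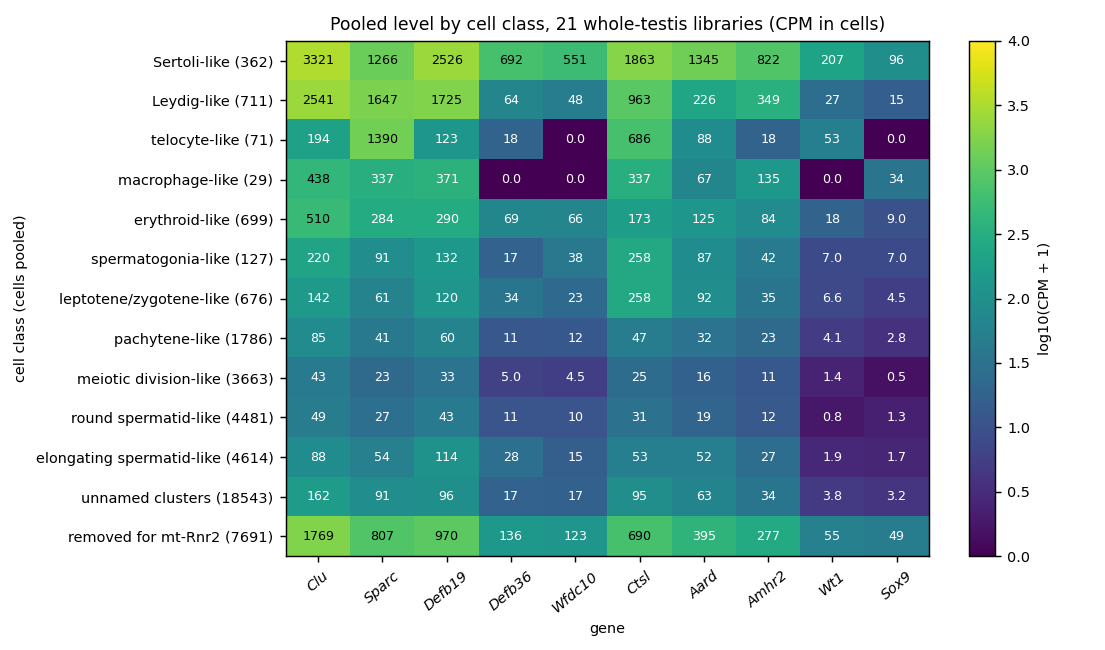
Pooled level of each of the 10 genes (columns) in each kind of barcode of the 21 whole-testis libraries (rows, with the number of cells), coloured by log10(CPM + 1) and printed as CPM, with no replicate error. Sertoli-like cells are highest for 9 genes, while Sparc is higher in Leydig-like (1647 CPM) and telocyte-like cells (1389.9 CPM) than in Sertoli-like cells (1266 CPM).

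In single cells, Clu had a UMI in 73.2% of Sertoli-like cells (95% interval 68.3 to 77.7), Defb19 in 68.5% and Ctsl in 62.2%. Wt1 had a UMI in 21.3% (17.2 to 25.9) and Sox9 in 10.8% (7.77 to 14.4). A Sertoli-like cell had a UMI of a median of 5 of the 10 genes, and 11 of the 362 cells had none. When every cell was thinned to 500 UMIs, which left out 69 shallower cells, the shares were 63.5% for Clu, 55.3% for Defb19, 8.87% for Wt1 and 4.78% for Sox9. Most Sertoli-like cells thus had no UMI of either transcription factor, and at this depth a cell without a UMI cannot be called negative. Round spermatid-like cells, a germ cell class, had a UMI of Clu in 8.48% of 4481 cells (median 1323 UMIs) and in 2.46% after thinning.

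Leydig-like cells, the androgen-producing cells between the tubules, carried Sparc above the Sertoli-like level (1647 against 1266 CPM) and the other members below it to unequal degrees. Their 711 cells had 2541 CPM of Clu, 1725 of Defb19, 963 of Ctsl, 349 of Amhr2 and 226 of Aard. Defb36 was at 64.2 CPM (49.6 to 81.7), Wfdc10 at 47.7, Wt1 at 27.2 and Sox9 at 14.6, each far below the Sertoli-like interval. The cluster that Insl3 and Cyp17a1 led held 312 of these cells from all 4 strains and showed the split most clearly. It had 2830 CPM of Clu (2684 to 2982), 2517 of Defb19 and 2382 of Sparc, but 28.2 of Defb36, 14.1 of Wfdc10, 10.1 of Wt1 and 4.03 of Sox9, the last from 2 UMIs. A reference list of other Sertoli genes, among them Cst9, Cst12, Tsx and Inha, summed to 599 CPM in that cluster and to 5907 CPM in the larger Sertoli-like cluster. Every gene of this list was also a marker used to name clusters. Its gap between classes was therefore set in part by the naming. Clu, which was left out of the naming, was no lower than in the larger Sertoli-like cluster (2579 CPM, 2420 to 2746).

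The same pattern held in the Leydig-like cells of each strain that had libraries of at least 10 such cells. Across 6 Mlh3-/- libraries Clu ran from 2284 to 2924 CPM and Defb36 from 22.1 to 146, and in the 2 Cul4a-/- libraries Clu was 2141 and 3703 and Defb36 17.6 and 0. The other Leydig-like clusters came mostly from Mlh3-/- library 1 (253 of 255 and 119 of 144 cells) and were led by Lcn2. Their Sertoli reference list reached 1618 and 1609 CPM, above the 599 CPM of the other Leydig-like cluster. Telocyte-like cells, stromal cells of the interstitium, had 1389.9 CPM of Sparc (1100.4 to 1732) and 686 of Ctsl from 71 cells, with 194 of Clu and no UMI of Wfdc10 or Sox9, whose exact intervals reach 64.9 CPM.

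The Sertoli-like class itself was made of unlike clusters. The larger held 256 cells led by the cystatin genes Cst12 and Cst9 with Ldhb and Gatm, and the smaller held 106 cells, 34 of them from Mlh3-/- library 2, led by Ppp1r9a, Etnk2 and Thoc2, with none of the fixed Sertoli markers among its top 10 genes. The beta-defensins and Aard were higher in the larger cluster: Defb19 2926 against 1437 CPM, Defb36 854 against 250.3 and Aard 1660.0 against 486. Clu (2579 against 5342), Sparc (885 against 2303), Wt1 (108 against 479) and Sox9 (65.7 against 179) were higher in the smaller cluster. Summed Leydig markers were 743 CPM in the larger and 1859 in the smaller. These are pooled levels of clusters found in the same cells and were not tested.

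In germ cells the 10 genes were found at a small fraction of their Sertoli-like level. In wild-type round spermatid-like cells the level was between 0.71% (Wfdc10) and 2.24% (Sox9) of the level in wild-type Sertoli-like cells, with Clu at 29.7 against 2772 CPM. In elongating spermatid-like cells it was between 1.17% (Wt1) and 5.64% (Sox9). The Sox9 and Wt1 ends rest on few UMIs. Sox9 was at 41.8 CPM in Sertoli-like, 0.94 in round and 2.36 in elongating spermatid-like cells. Wt1 was at 1.47 CPM in elongating spermatid-like cells. These ends therefore do not rank the genes. Of the member UMIs, Clu gave 22.4% of member UMIs in wild-type Sertoli-like cells (20.02 to 24.8), 21.9% in round (18.9 to 25.1) and 20.6% in elongating spermatid-like cells (18.5 to 22.9). Defb19 gave 22.3%, 19.5% and 23.8%. Wfdc10 gave 5.74% in Sertoli-like cells (4.48 to 7.22), 3.71% in round and 3.07% in elongating spermatid-like cells (2.21 to 4.15), a lower share beyond counting error in the last, and Aard 11.8%, 14.2% and 15.1%. Sparc made up a larger share in round spermatid-like cells (12.5%, 10.2 to 15.1) than in Sertoli-like cells (8.52%, 7.00 to 10.3), with intervals that meet. The number of member UMIs per reference-list UMI was 1.73 in wild-type Sertoli-like, 1.85 in round and 1.86 in elongating spermatid-like cells, against 12.7 in Leydig-like cells. The Leydig-like ratio rests on 19 reference-list UMIs. The reference genes were naming markers, so the gap between Sertoli-like and Leydig-like cells is not independent of the naming. These values describe RNA counted with germ cell barcodes, and its route into those droplets was not tested.

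Ctsl departed from this pattern in early germ cells. It had 258 CPM in 127 spermatogonia-like cells (203 to 324) and 258 CPM in 676 leptotene/zygotene-like cells (236 to 281), where it was the highest of the 10 genes. Clu was at 219.6 (169 to 281) and 142 (126 to 159.7) in the same classes. In leptotene/zygotene-like cells the order of Ctsl and Clu was thus the opposite of that in Sertoli-like cells (1863 and 3321 CPM), beyond counting error. In wild-type pachytene-like cells Ctsl made up 23.0% of member UMIs (16.7 to 30.3) and Defb19 9.32% (5.31 to 14.9), against 14.6% and 22.3% in Sertoli-like cells. The pachytene-like shares rest on 161 member UMIs. In Cul4a-/- and Mlh3-/- pachytene-like cells Ctsl was below Defb19 (24.8 against 55.8 CPM and 62.1 against 77.4 CPM). The order was the same in the Sertoli-like cells of these strains (3304 against 3986 CPM and 1250 against 1815 CPM). In CNP pachytene-like cells, with 32 member UMIs, Ctsl was above Defb19 (50.6 against 15.2 CPM). The departure at this stage was thus not shared by all strains.

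The sorted libraries, 1 of each kind, give no replicate check. In sorted spermatogonia the members summed to 1803 CPM, with 511 of Clu, 453 of Ctsl, 253 of Aard and 41.9 of Sox9. In sorted primary spermatocytes they summed to 168.0 CPM, with Ctsl (65.3) the highest, and Wfdc10, Wt1 and Sox9 at 0 of 107117 UMIs, which allows up to 28.01 CPM (3 counts). Sorted secondary spermatocytes had 649 CPM, of which Defb19 gave 259 and Clu 187, and sorted spermatids 211 CPM. Members were thus lowest in the sorted primary spermatocytes and spermatids. Sertoli-like cells were 4.02% of the sorted spermatogonia that passed the filters, and Leydig-like cells 5.84% of the sorted secondary spermatocytes.

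Where the member UMIs of a whole testis sat differed by strain. In wild-type libraries 11.1% of member UMIs were in Sertoli-like cells, 28.9% in named germ cells and 53.8% in clusters that met no naming rule. In Cul4a-/- libraries 19.7% were in Sertoli-like, 10.1% in Leydig-like and 44.9% in named germ cells. The UMIs of all genes were also spread unequally. Named germ cells held 58.8% of them in wild-type and 88.2% in Cul4a-/- libraries, unnamed clusters 39.2% and 8.95%, and Sertoli-like cells 0.364% and 0.657%. In Mlh3-/- libraries 68.1% were in barcodes removed for mt-Rnr2, which were 60.8% of barcodes, and 14.2% and 6.78% were in Leydig-like and Sertoli-like cells. When barcodes were filtered on UMIs and genes only, Mlh3-/- libraries had 1645 Leydig-like barcodes with 54.6% of the member UMIs and 593 Sertoli-like barcodes with 14.9%. The split was uneven among genes: Sparc had 59.3% of its Mlh3-/- UMIs in Leydig-like and 10.6% in Sertoli-like barcodes, while Wt1 had 33.9% and 37.0%. Aard, Defb36 and Wfdc10 had 24.4%, 25.5% and 22.1% in Sertoli-like barcodes, and Clu and Ctsl each 13.1%.

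**Figure D2:**
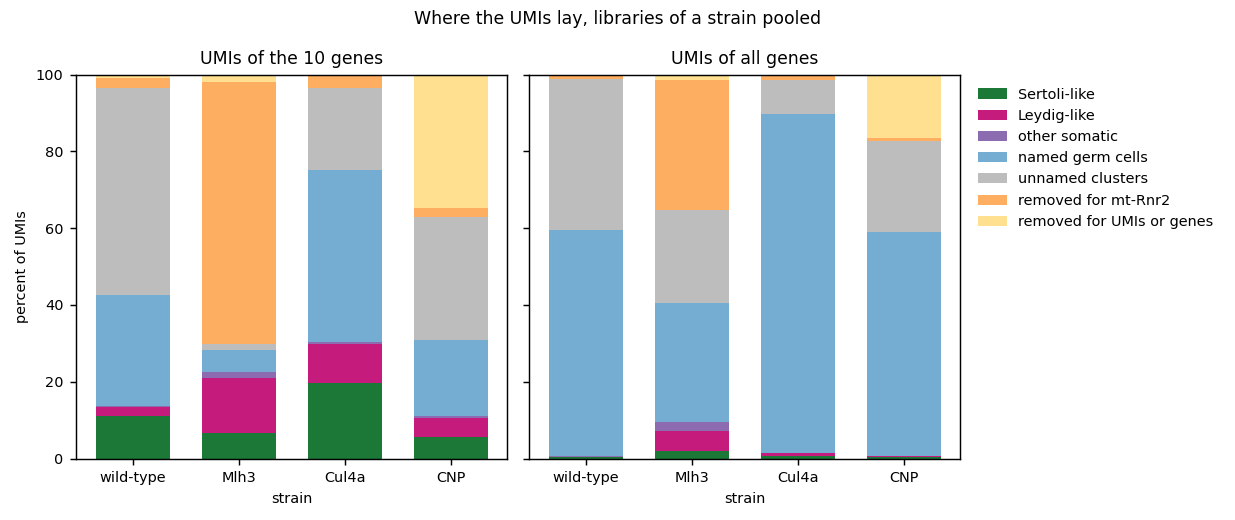
Percent of the UMIs of the 10 genes (vertical axis) found in each kind of barcode in the whole-testis libraries of each strain (bars), stacked by Sertoli-like, Leydig-like, other somatic, named germ, unnamed and removed barcodes, beside the same for the UMIs of all genes. Barcodes removed for mt-Rnr2 hold 68.1% of the UMIs of the 10 genes in Mlh3-/- and 2.76% in wild-type libraries, and 33.9% and 0.973% of all UMIs.

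Across whole libraries, each of the 10 genes was higher in Mlh3-/- than in wild-type testes, by 3.61-fold (Aard) to 11.2-fold (Sox9). Counts of all genes were compared with edgeR (quasi-likelihood F test, p-values adjusted by Benjamini-Hochberg over all genes), and a gene was called at an adjusted p under 0.05. Of all 23386 genes tested, 32.7% were called higher in Mlh3-/-, so 10 of 10 is above that background. The median log2 fold change of all genes was 0.16 (0.62 when libraries were scaled to totals, without the trimmed mean of M values, TMM), and that of the members 2.49. Scaling to totals also moved the higher calls from 53.3% to 66.3% of all calls. A whole library cannot tell more Sertoli or Leydig cells from more RNA per cell or from less germ cell RNA. CPM is a share of all UMIs. Round and elongating spermatid-like cells held 5345304 and 3392691 UMIs in wild-type libraries, and Mlh3-/- libraries had none of these cells.

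Among the secreted products, Clu ran from 80.7 to 199 CPM in 11 wild-type libraries (median 94.4) and from 450.1 to 2634 in 6 Mlh3-/- libraries (median 1097). The groups did not overlap, and the log2 fold change was 2.96 ± 0.28 (SE) with an adjusted p of 8.4e-11. Sparc went from 27.99 to 88.6 CPM (median 48.9) in wild-type and from 221 to 1054 (median 621) in Mlh3-/- libraries, a log2 fold change of 2.87 ± 0.26. Defb19 was at 18.6 to 158 CPM (median 63.8) and 292 to 1405 (median 498), a log2 fold change of 2.58 ± 0.33. Every Mlh3-/- library was above every wild-type library for these 3 genes. Its neighbour Defb36 was at 2.33 to 42.0 CPM (median 12.98) and 34.4 to 179.5 (median 80.1), the only member whose groups overlapped. Its log2 fold change was 2.12 ± 0.33 with an adjusted p of 1.6e-06. Wfdc10 was at 3.88 to 34.0 CPM (median 10.97) and 36.6 to 149 (median 58.9), a log2 fold change of 2.07 ± 0.32 with groups that just missed each other. Over all genes 20.3% had every Mlh3-/- library above every wild-type library, against 9 of the 10 members.

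The protease Ctsl was at 42.0 to 127 CPM in wild-type (median 58.6) and 176 to 1148 in Mlh3-/- libraries (median 411), a log2 fold change of 2.39 ± 0.31. Aard was at 14.0 to 64.1 CPM (median 51.8) and 131 to 489.8 (median 217), a log2 fold change of 1.85 ± 0.22, the smallest of the 10. The receptor gene Amhr2 was at 11.2 to 59.0 CPM (median 24.9) and 79.3 to 381 (median 163), a log2 fold change of 2.20 ± 0.29. All 3 had groups apart from each other. The transcription factors were scarce in wild-type testis and had the largest fold changes. Wt1 was at 1.04 to 8.40 CPM (median 3.31) and 19.1 to 122 (median 25.9), a log2 fold change of 3.08 ± 0.34. Sox9 was at 0 to 4.47 CPM (median 1.81) and 7.41 to 88.7 (median 17.9), a log2 fold change of 3.48 ± 0.44 with an adjusted p of 3.6e-08.

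**Figure D3:**
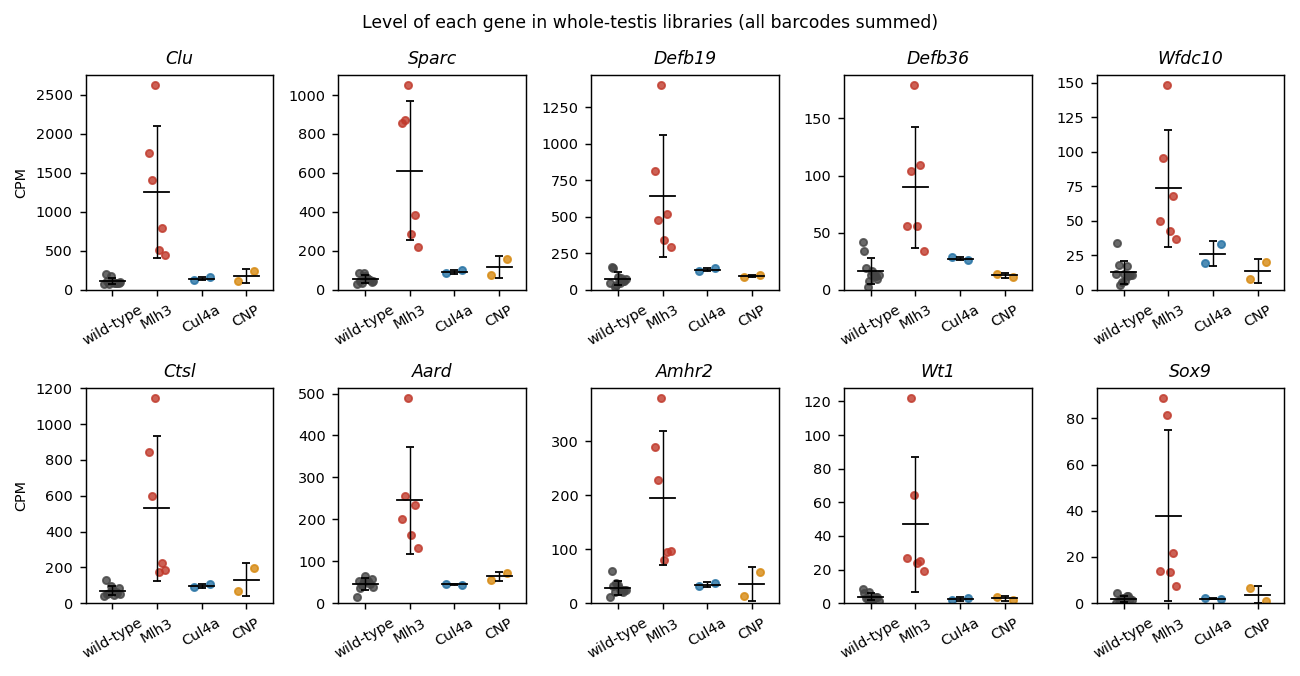
Level of each of the 10 genes in each of the 21 whole-testis libraries (points), as CPM on an axis from 0, with the mean of each strain (bar) and its SD (error bar, cut at 0; n = 11, 6, 2 and 2). Mlh3-/- libraries lie above all wild-type libraries for 9 genes, and for Defb36 the lowest Mlh3-/- library (34.4 CPM) lies below the highest wild-type library (42.0 CPM).

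The Mlh3-/- libraries differed widely among themselves. Members summed to 4916, 4249 and 7585 CPM in libraries 1 to 3, of 3 months 22 days and 8 months 30 days, and to 1689, 2465 and 1473 CPM in libraries 4 to 6, of 2 months 21 to 23 days. Wild-type libraries summed to 268 to 759.8 CPM (419 ± 134, SD, n = 11). The enzymatically dissociated wild-type library 2 was the highest, and wild-type library 1, dissociated the same way, had 288 CPM. Mlh3-/- libraries 1 to 3 were thus all above Mlh3-/- libraries 4 to 6, and all 6 were above every wild-type library. Leydig markers moved with the members: 7 of 7 were detected in both groups, and their sum was 1336 to 9180 CPM in Mlh3-/- and 0 to 390.5 CPM in wild-type libraries. Without Mlh3-/- libraries 1 to 3 and wild-type libraries 1 and 2, and also within the HiSeq libraries of mechanically dissociated testis, 10 of 10 members were still called higher. The share of all genes called higher in these subsets is not given beside that count.

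Set against other Sertoli genes, the excess was smaller and uneven. Members gave 1.81 to 2.30 UMIs per UMI of the reference list in wild-type libraries, 2.75 to 4.30 in Mlh3-/-, 2.88 and 2.96 in Cul4a-/- and 2.65 and 2.56 in CNP libraries. Every mutant or transgenic library was above every wild-type library. Within Sertoli-like cells the pooled ratio was 1.73 in wild-type, 2.24 in Mlh3-/-, 2.68 in Cul4a-/- and 1.82 in CNP. In Leydig-like cells it was 12.7 in wild-type, 5.95 in Mlh3-/- and 15.6 in Cul4a-/-, and CNP had no reference UMI there. The part of Leydig-like RNA in the ratio of a library was not tested. When libraries were scaled to the reference list in place of TMM, 4 of 10 members were called higher in Mlh3-/-: Clu (log2 fold change 0.95), Sparc (0.94), Wt1 (1.21) and Sox9 (1.42). Defb19 (0.69, adjusted p = 0.068 by edgeR), Ctsl, Amhr2, Wfdc10 and Defb36 were not called, and Aard changed sign to -0.07. Calls for 6 of the 10 genes therefore depend on whether RNA is counted per library or per Sertoli reference UMI. This scaling shifts the fold change of every gene, and the share of all genes called under it is not given here.

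Mlh3-/- and Cul4a-/- testes carry the same background label, B6;129, and different labelled ages, with the doubts on both given above. In that comparison 8 of 10 members were called higher in Mlh3-/-, where 20.2% of all genes were. Clu, at 132 and 160.1 CPM in the 2 Cul4a-/- libraries, was 5.93-fold higher in Mlh3-/- (log2 fold change 2.57 ± 0.53, adjusted p = 2.1e-04 by edgeR). Wt1, at 1.65 and 3.28 CPM, differed most after Sox9, with log2 fold changes of 3.54 ± 0.59 and 3.60 ± 0.74. Defb36 (28.5 and 26.4 CPM, log2 fold change 1.20 ± 0.53, adjusted p = 0.061) and Wfdc10 (19.7 and 32.9 CPM, 0.95 ± 0.50, adjusted p = 0.12) were not called. Scaled to totals, both were called, and the higher calls over all genes went from 42.9% to 59.9% of calls. Scaled to the reference list, 2 of 10 were called (Wt1 and Sox9), and Ctsl and Defb19 changed sign. No share of all genes under this scaling is given beside that count.

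Against wild-type testes, 0 of 10 members were called by edgeR in Cul4a-/- (2.06% of all genes, 1 member at an unadjusted p under 0.05) and 0 of 10 in CNP testes (0.543% of all genes, 1 member at an unadjusted p under 0.05). By DESeq2 the count was also 0 in both. Cul4a-/- libraries had 130.2 and 147 CPM of Defb19 against a wild-type median of 63.8, a log2 fold change of 0.88 ± 0.47. Wfdc10 had 1.12 ± 0.43, adjusted p = 0.18 by edgeR. Both Cul4a-/- libraries lay within the wild-type range for these 2 genes. In CNP testes Sparc was 77.4 and 157 CPM, a log2 fold change of 0.94 ± 0.39, and Ctsl 65.8 and 198, 0.83 ± 0.47. The CNP libraries differed from each other in the members' sum, 445 and 865 CPM. Without wild-type libraries 1 and 2 and Mlh3-/- libraries 1 to 3, 4 members were called higher in Cul4a-/- (Sparc, Defb19, Defb36 and Wfdc10) and 2 in CNP (Sparc and Ctsl), where of 22844 genes tested 2329 and 162 were.

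**Figure D4:**
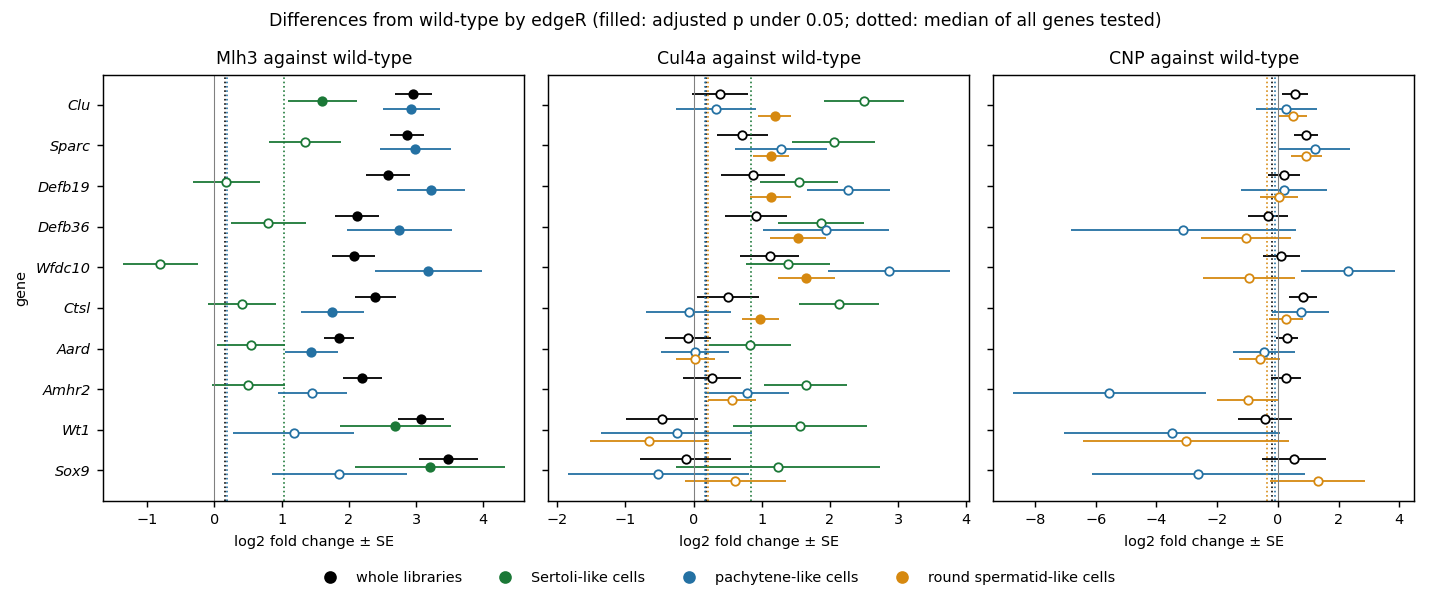
Log2 fold change of each of the 10 genes against wild-type (points) with the standard error (bars), 1 panel each for Mlh3-/-, Cul4a-/- and CNP and 1 colour each for whole libraries, Sertoli-like, pachytene-like and round spermatid-like cells; filled points have an adjusted p under 0.05 and dotted lines are medians of all genes tested. All 10 whole-library points of Mlh3-/- are filled, from 1.85 (Aard) to 3.48 (Sox9), and none of those of Cul4a-/- or CNP is.

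Sertoli-like cells were a median of 0.411% of cells in wild-type libraries (0.222 to 1.64), 5.27% in Mlh3-/- (0.235 to 26.5), 0.820% and 2.05% in Cul4a-/- and 0.201% and 0.518% in CNP libraries. These shares were not tested. They count cells after the mt-Rnr2 filter, which removed 60.8% of Mlh3-/- barcodes and 2.07% of wild-type barcodes.

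Within Sertoli-like cells the level of the members varied widely between libraries of a strain. Libraries with at least 10 such cells were wild-type 6, 8, 10 and 11 (12, 15, 13 and 10 cells), Mlh3-/- 2, 4, 5 and 6 (36, 16, 65 and 58 cells) and both Cul4a-/- libraries (22 and 57 cells). The sum of the members was 8031, 9393, 13055 and 6173 CPM in wild-type, 13635, 5582, 17245 and 5573 CPM in Mlh3-/- and 22413 and 16744 CPM in Cul4a-/- libraries. Wild-type and Mlh3-/- libraries thus overlapped, and among these libraries Cul4a-/- library 1 was the highest. The wild-type libraries left out had 1 to 9 such cells each, and their sums ran from 5990 CPM to 25915 CPM in library 2 (8 cells), above Cul4a-/- library 1. CNP libraries had too few Sertoli-like cells for a fit.

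By edgeR, 3 of 10 members were called higher in Mlh3-/- than in wild-type Sertoli-like cells, where 3.95% of 10236 genes were: Clu, Wt1 and Sox9. Clu was at 1820.3, 1553, 1982 and 736 CPM in wild-type and 4859, 1813, 4167 and 1407 CPM in Mlh3-/- libraries. These values overlap, and the log2 fold change was 1.60 ± 0.52 (adjusted p = 0.026 by edgeR). Wt1 was at 0, 0, 233 and 56.6 CPM and at 562, 170.0, 274 and 170.2 CPM, a log2 fold change of 2.69 ± 0.83 (adjusted p = 0.018). Sox9 was at 0, 0, 117 and 0 CPM and at 288.5, 113, 182 and 53.8 CPM, 3.21 ± 1.12 (adjusted p = 0.047). The wild-type values of the transcription factors rest on 3 UMIs of Wt1 and 1 of Sox9, where a count of 0 allows up to 169.9 to 349.7 CPM per library (3 counts). Pooled over these libraries, Mlh3-/- had 4.70 times the Wt1 of wild-type (counting interval 1.55 to 23.3) and 7.23 times the Sox9 (1.23 to 292). Over all Sertoli-like cells, including libraries with fewer than 10, the pooled levels lay closer together: Wt1 was at 126 CPM in 97 wild-type cells (64.9 to 219) and 274 CPM in 178 Mlh3-/- cells (217 to 341), and Sox9 at 41.8 (11.4 to 107) and 144 (104 to 194). Clu was at 2772 (2448 to 3126) and 2948 CPM (2754 to 3152) there, with intervals that overlap.

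None of the 3 calls held in every setting. With at least 5 cells per library Clu was not called (log2 fold change 0.82, adjusted p = 0.19 by edgeR), and Wt1 (1.64) and Sox9 (2.21) were called at smaller values. The median log2 fold change of all genes was 1.04 under TMM and 0.58 without it. Relative to 1.04, Clu was 0.56 higher, while Defb19 (0.18 ± 0.49), Ctsl (0.41 ± 0.51), Aard (0.55 ± 0.51) and Amhr2 (0.51 ± 0.54) were below it and were not called. The median of the members was 0.68. With library totals 0 members were called, and the higher calls over all genes went from 44.5% to 19.2% of calls. The strains filled the clusters of the class unequally, with 64 of 178 Mlh3-/-, 21 of 97 wild-type and 18 of 79 Cul4a-/- cells in the smaller. In the larger cluster alone 0 were called, and the log2 fold changes were 0.67 for Clu, 1.37 for Wt1 and 1.64 for Sox9. Without wild-type library 6, 8 or 11, Mlh3-/- library 2 or Cul4a-/- library 1, 0 were called, and without wild-type library 10, 2. With barcodes filtered on UMIs and genes only, 5 were called (Sparc and Defb36 as well), where 957 of 11495 genes were. Markers of other cells moved with the strain. Leydig markers summed to 113 to 535 CPM in wild-type Sertoli-like cells, with 4 of 7 at 0 (Star, Cyp11a1, Hsd3b1 and Hsd17b3), and to 421 to 2068 CPM in Mlh3-/-, with none at 0. Macrophage markers summed to 0 to 56.6 CPM, with 9 of 10 at 0, and 91.2 to 510.0 CPM. Their part in the result was not tested.

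**Figure D5:**
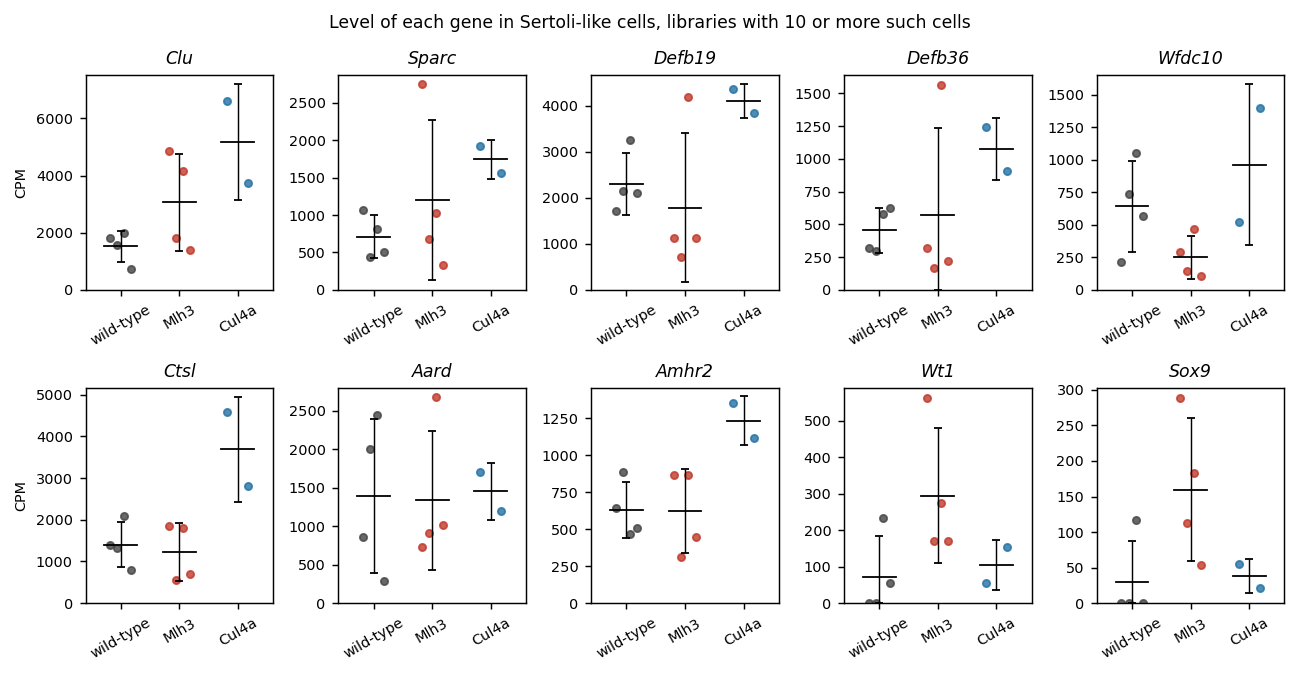
Level of each of the 10 genes in Sertoli-like cells of each library with at least 10 such cells (points), as CPM, with the mean of each strain (bar) and its SD (error bar, cut at 0). Wild-type (n = 4) and Mlh3-/- (n = 4) libraries overlap for Clu, and both Cul4a-/- libraries (n = 2) lie above these 4 wild-type libraries for Clu, Sparc, Defb19, Defb36, Ctsl and Amhr2. Wild-type library 2, with 8 cells and not plotted, was above both Cul4a-/- libraries for Sparc, Defb19, Defb36 and Amhr2. For Clu and Ctsl it was above Cul4a-/- library 2 only.

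Among the fitted libraries, Cul4a-/- Sertoli-like cells had the highest mean of 8 of the 10 genes, Aard among them. Pooled over all Sertoli-like cells, Aard was lower in Cul4a-/- (1339 CPM) than in wild-type (1464 CPM). Against wild-type, 0 of 10 were called by edgeR or DESeq2 (7 at an unadjusted p under 0.05 by edgeR). Clu was at 6616 and 3751 CPM, a log2 fold change of 2.503 ± 0.587 over wild-type (adjusted p = 0.064 by edgeR), and Ctsl was at 4576 and 2799.8 CPM against 1392, 1331, 2098 and 793 in wild-type, 2.13 ± 0.58 (adjusted p = 0.24). Sparc was at 1929.8 and 1564 CPM, a log2 fold change of 2.06 ± 0.61. Every Cul4a-/- value was above those of the 4 wild-type libraries fitted for these 3 genes. Wild-type library 2, not fitted with 8 cells, had 6257 CPM of Clu, 3821 of Ctsl and 2603 of Sparc, each above Cul4a-/- library 2. Wild-type libraries 4 (6 cells) and 1 (1 cell), also not fitted, were above Cul4a-/- library 2 for the 3 genes as well, and library 1 was above both Cul4a-/- libraries for Clu (6917 CPM) and Sparc (1976 CPM). Of all genes, 0.0% (0 of 10236) passed an adjusted p of 0.05, with 790 at an unadjusted p under 0.05. The median log2 fold change of all genes was 0.84. The pooled Clu level was 3.30 times that of wild-type (counting interval 2.56 to 4.30) in the fitted libraries, and over all Sertoli-like cells the levels were 4565 and 2772 CPM. The pooled Ctsl level was 2.58 times that of wild-type (counting interval 1.97 to 3.41) in the fitted libraries, and over all Sertoli-like cells the levels were 3304 and 1809 CPM. Filtered on UMIs and genes only, Clu, Ctsl, Defb19, Defb36 and Sparc were called higher, where 17 of 11495 genes were. Leydig markers summed to 1323 and 1367 CPM in these Cul4a-/- cells, with 7 of 7 detected, above the 113 to 535 CPM of wild-type, and their part in the result was not tested. Against Cul4a-/- Sertoli-like cells, 2 members were called lower in Mlh3-/-, where 7.31% of all genes were. Wfdc10 was at 288.5, 142, 471 and 108 CPM in Mlh3-/- and 524 and 1399.9 CPM in Cul4a-/- libraries, a log2 fold change of -2.19 ± 0.58 (adjusted p = 0.0035). Ctsl was at 1852, 567, 1809.7 and 689.9 CPM in Mlh3-/-, a log2 fold change of -1.72 ± 0.56 (adjusted p = 0.031). The fitted libraries of these strains did not overlap for either gene. Mlh3-/- library 3, not fitted with 2 cells, had 4039 CPM of Ctsl, above Cul4a-/- library 2. By DESeq2 neither was called, and neither was called without Cul4a-/- library 2, which held 57 of the 79 cells. Ctsl was also not called without Cul4a-/- library 1, Mlh3-/- library 4, 5 or 6 or wild-type library 8 (adjusted p from 0.057 to 0.35 by edgeR).

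RNA of the members counted in germ cells also differed by strain. In pachytene-like cells, 7 of 10 members were called higher in Mlh3-/- than in wild-type libraries, where 4.77% of 14744 genes were. Clu ran from 13.4 to 121 CPM over 9 wild-type libraries and from 55.7 to 851 CPM over 6 Mlh3-/- libraries, a log2 fold change of 2.93 ± 0.42 (adjusted p = 1.2e-07 by edgeR). Defb19 (3.22 ± 0.51), Wfdc10 (3.18 ± 0.80), Sparc (2.99 ± 0.53), Defb36 (2.75 ± 0.78), Ctsl (1.76 ± 0.46) and Aard (1.44 ± 0.39) were called, and Amhr2, Wt1 and Sox9 were not. The groups overlapped for each of the 7 members called. The sum of the members was 842, 1342 and 2539 CPM in Mlh3-/- libraries 1 to 3 and 346, 207 and 216 CPM in libraries 4 to 6. As in whole libraries, libraries 1 to 3 were all above libraries 4 to 6. Unlike in whole libraries, libraries 4 to 6 lay within the range of the 9 wild-type libraries, 45.9 to 363 CPM. With at least 50 cells per library, which keeps only libraries 4 to 6, 2 members were called, and without Mlh3-/- library 3, 4. Leydig markers in these cells summed to 0 to 40.5 CPM in wild-type, with Cyp11a1, Hsd3b1 and Hsd17b3 at 0, and to 107 to 2252 CPM in Mlh3-/- libraries, with 7 of 7 detected. Their part in the result was not tested.

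Cul4a-/- pachytene-like cells had 0 of 10 members called by edgeR or DESeq2 (0.638% of all genes, 3 members at an unadjusted p under 0.05 by edgeR), with Defb19 closest at a log2 fold change of 2.27 ± 0.61 (adjusted p = 0.055 by edgeR), and it was called when genes were not filtered, when libraries had at least 50 cells and without some libraries. CNP pachytene-like cells had 0 called by edgeR or DESeq2 (0.448% of all genes, 0 members at an unadjusted p under 0.05 by edgeR). They held 32 member UMIs, against 161 in wild-type and 447 in Cul4a-/- pachytene-like cells, so few differences could be called. In round spermatid-like cells, 6 of 10 members were called higher in Cul4a-/- than in wild-type, where 5.25% of 17147 genes were. Clu was at 80.4 and 53.1 CPM in Cul4a-/- and between 17.9 and 53.5 CPM in 11 wild-type libraries, a log2 fold change of 1.19 ± 0.24 (adjusted p = 5.2e-04). Sparc (1.14 ± 0.27), Defb19 (1.13 ± 0.30), Defb36 (1.54 ± 0.41), Wfdc10 (1.65 ± 0.42) and Ctsl (0.98 ± 0.27) were called as well, and Aard (0.03 ± 0.29), Amhr2, Wt1 and Sox9 were not. Without Cul4a-/- library 1, 0 were called, without library 2, 1, and by DESeq2, 2. Leydig markers in these cells summed to 0 to 140.5 CPM in wild-type and to 96.6 and 156 CPM in Cul4a-/- libraries, with 7 of 7 detected in both, and their part in the result was not tested. CNP round spermatid-like cells had 0 of 10 called by edgeR (0.752% of all genes, 0 members at an unadjusted p under 0.05). They held 61 member UMIs. The median UMIs per round spermatid-like cell were 593.5 in CNP, 1109 in wild-type and 2932 in Cul4a-/-, so the strains were not compared at equal depth. Mlh3-/- testes had no round or elongating spermatid-like cells.

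Most genes on the other Sertoli lists moved with the members in whole Mlh3-/- libraries, where 32.7% of all genes were called higher. The genes named are among those with the smallest adjusted p of each list. Of junction and cytoskeleton genes, 8 of 9 were called higher, among them the intermediate filament gene Vim (log2 fold change 3.43 ± 0.33), the integrin Itga6 (3.67 ± 0.36), the cadherin Cdh2 (1.69 ± 0.18) and the gap junction gene Gja1 (3.09 ± 0.34). All 8 genes of metabolism and detoxification were called higher, among them Aldh1a1 (4.55 ± 0.41), which makes retinoic acid, Gsta4 (3.11 ± 0.31), Gstm6 (2.54 ± 0.27) and Ldhb (2.62 ± 0.31). Of 9 tested transcription factors and receptors 8 were higher, among them Nr5a1 (3.41 ± 0.43), Gata1 (2.75 ± 0.40) and Nr0b1 (2.11 ± 0.32). Aldh1a1 and Nr5a1 are also known in Leydig cells. Ptgds, on the list of secreted products, was also one of the Leydig markers used here. Dmrt1, on the list of regulators, was also one of the spermatogonia markers. These lists are therefore not made of Sertoli genes alone. Of 14 tested secreted products 12 were higher and 1 lower. The stem cell factor gene Kitl (3.56 ± 0.30), Serpina5 (3.82 ± 0.35) and Igfbp7 (3.55 ± 0.36) rose. The cystatin Cst8 fell by 4.31 ± 0.30 on the log2 scale. Which cells gave the Cst8 RNA was not tested, and Mlh3-/- testes had no round or elongating spermatid-like cells. The medians of these lists were 2.32, 2.47, 2.72 and 2.44, beside 2.49 for the 10 members and 0.16 for all genes.

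In Cul4a-/- and CNP whole libraries these 4 lists gave 1 call and 0 calls over wild-type, where 2.06% and 0.543% of all genes were called in either direction. Against Cul4a-/-, Mlh3-/- libraries were higher for 8 of 9 junction, 6 of 8 metabolic, 7 of 9 regulator and 12 of 14 secreted genes, where 20.2% of all genes were. In that comparison 1 regulator, Esr2, and 1 secreted gene, Cst8, were lower. In Sertoli-like cells of Mlh3-/- against wild-type, where 3.95% of all genes were called higher, 3 of the lists are described. Vim (4.40 ± 0.98) and Espn (2.28 ± 0.70), which bundles actin at Sertoli junctions, were called among 9 junction genes. Of 6 tested metabolic genes 0 were called by edgeR, with 3 at an unadjusted p under 0.05, and of 13 secreted products Cst8 fell by 4.20 ± 0.63 on the log2 scale. The source of the Cst8 RNA counted with these cells was not tested.

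Over the 21 whole-testis libraries, the genes whose log2 level followed the sum of the members most closely, among 6674 genes with at least 20 CPM on average, were Arpc5 (Pearson r = 0.986), Gstm6 (0.984), Nedd4 (0.984), Psma7 (0.979) and Ndufa4 (0.979). These libraries share strain differences, and within the 11 wild-type libraries r was 0.836, 0.957, 0.905, 0.797 and 0.747. Gstm6, a glutathione transferase of the Sertoli list, kept the closest likeness within wild-type libraries. Of the members, Clu followed the sum most closely (0.989) and Defb36 least (0.818), and within wild-type libraries Amhr2 most (0.894) and Wt1 least (0.215). The part of a gene in its own sum was not removed.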

How the data were processed

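Drop-seq libraries were read from the count tables that the authors deposited, which hold whole-number UMI counts per gene and barcode, 1 table for each of 25 libraries, not normalized. Per the labels and the submitters' processing notes, reads were aligned with STAR 2.5.3a to GRCm38 (mm10). Whole-testis libraries held 357235 to 9745302 UMIs. Wild-type libraries 1 and 3, Mlh3-/- libraries 1 and 2 and the Hoechst-sorted libraries were sequenced on a MiSeq and the rest on a HiSeq.

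The 10 genes and the gene lists were chosen with earlier results of these data known. Barcodes were kept at 200 UMIs and 50 genes or more, no more than 1 SD below their library's mean, and at a scaled mt-Rnr2 level of at most 2. Cells were clustered with scanpy 1.11.5 and leidenalg 0.10.2 (40 principal components, 20 neighbours, resolution 2) without the 10 genes, and clusters were named from fixed markers as X-like or left unnamed. Doublets were not called. UMIs were summed per library, or per class in libraries with at least 10 of its cells. Genes with at least 5 counts were tested with edgeR 4.0.16 (quasi-likelihood test, TMM, all strains in 1 fit, Benjamini-Hochberg adjustment over all genes tested, adjusted p under 0.05). SE is the log2 fold change divided by the root of the F statistic. The script was tested on simulated data. Alternatives were DESeq2 1.42.0, other filters, scalings, covariates, clusterings, a replicate block and leaving out each library. Besides the 10 genes, the genes named with values are up to 4 of each list, those with the smallest adjusted p in a comparison, and the 5 most like the members' sum. Promoters and motifs came from RefSeq, positions from GENCODE. One other mutant strain of the study is not analysed here. The values of 1 listed gene are not reported here.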

Additional observations from a re-analysis of the deposited data

Results flagged for a closer look

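Of 57 groups of 4 to 10 libraries, 13 held a library that stood apart from the others of its group by Dixon's test, with a nominal rate of about 1 in 20. The groups share libraries and some rest on few UMIs, so the count of 13 cannot be set against that rate. In whole libraries, Aard was at 489.8 CPM in Mlh3-/- library 3, above the other Mlh3-/- libraries. In Sertoli-like cells, Mlh3-/- library 5 stood above the other Mlh3-/- libraries for Defb19 (4197 CPM), Defb36 (1566 CPM) and Aard (2677 CPM), and wild-type library 10 was the only one of the 4 wild-type libraries with at least 10 such cells that had a UMI of Sox9 (117 CPM). Sertoli-like cells were 26.5% of the cells of Mlh3-/- library 2.

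In pachytene-like cells, wild-type library 5, with 20 such cells, stood apart for Clu (121 CPM), Ctsl (145 CPM) and Wt1 (24.2 CPM), and wild-type library 3 for Defb19 (60.7 CPM). Mlh3-/- library 3 stood apart for Defb19 (489 CPM) and Defb36 (83.7 CPM) and Mlh3-/- library 2 for Wt1 (59.97 CPM).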

How the results depend on the processing

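In whole libraries 10 of 10 members were called higher in Mlh3-/- than in wild-type under every alternative except scaling to the Sertoli reference list (4). Against Cul4a-/- the count of 8 went to 2 under that scaling and to 5 with barcodes that pass the cell filters. Under that scaling Aard against wild-type was -0.068, and against Cul4a-/- Ctsl was -0.078 and Defb19 -0.17. For Cul4a-/- against wild-type the count of 0 went to 3 with HiSeq libraries of mechanical dissociation only and, in an alternative chosen after seeing the data, to 4 without wild-type libraries 1 and 2 and Mlh3-/- libraries 1 to 3, which gave 2 for CNP. The cause was not tested.

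In Sertoli-like cells the 3 calls of Mlh3-/- over wild-type went to 1 by DESeq2 and 5 with barcodes filtered on UMIs and genes alone, and, in alternatives chosen after seeing the data, to 0 with library totals and 0 in the larger cluster alone. For Cul4a-/- 0 went to 5 with barcodes filtered on UMIs and genes alone and to 2 with members kept among the clustering genes, also chosen after seeing the data. The 2 calls of Mlh3-/- against Cul4a-/- went to 0 by DESeq2 and to 1 with no filter on genes, at least 5 or 50 cells, resolution 1, members kept among the clustering genes or the larger cluster alone. In pachytene-like cells 7 went to 2 with at least 50 cells, and for Cul4a-/- 0 went to 1 with no gene filter, 1 with at least 50 cells, 2 at resolution 1 and 1 with barcodes filtered on UMIs and genes alone. In round spermatid-like cells of Cul4a-/- 6 went to 2 by DESeq2. At resolution 1 the wild-type Sertoli-like level of Amhr2 was 839 CPM and that of Wt1 131 CPM, from 72.4. With barcodes filtered on UMIs and genes alone wild-type Wt1 was 136 CPM, and the Cul4a-/- levels were 2055 CPM for Sparc, 4617 for Defb19, 1312 for Defb36 and 1472 for Amhr2.

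Leaving out 1 library at a time gave 10 to 10 calls for Mlh3-/- against wild-type in whole libraries, 0 to 1 for Cul4a-/-, 0 to 0 for CNP and 5 to 9 for Mlh3-/- against Cul4a-/-. In Sertoli-like cells it gave 0 to 4, 0 to 3 for Cul4a-/- and 0 to 3 for Mlh3-/- against Cul4a-/-. In pachytene-like cells it gave 4 to 8, 0 to 1 for Cul4a-/- and 0 for CNP, and in round spermatid-like cells 0 to 6 for Cul4a-/- and 0 for CNP.

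Same-numbered libraries did not deviate together (r from -0.156 to 0.141), so the numbers were not taken to pair samples. With the replicate block 10 members were called in Mlh3-/- against wild-type, 0 in Cul4a-/-, 0 in CNP and 10 in Mlh3-/- against Cul4a-/- whole libraries. In pachytene-like cells the replicate block gave 3 for Mlh3-/-, 0 for Cul4a-/- and 0 for CNP, and in round spermatid-like cells 0 for Cul4a-/- and 0 for CNP. In Sertoli-like cells the block could not be fitted.

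Over all genes, counts of calls moved by more than 1.5 times in several settings. In Sertoli-like cells of Mlh3-/- 908 went to 1544 with at least 5 cells and 1374 with barcodes filtered on UMIs and genes alone. In whole libraries Cul4a-/- went from 481 to 960 and CNP from 127 to 575 by DESeq2, and to 2020.0 and 457 with HiSeq libraries of mechanical dissociation only. In round spermatid-like cells of Cul4a-/- 1095 went to 636 by DESeq2 and 452 with barcodes filtered on UMIs and genes alone, and in pachytene-like cells 94 went to 404 with at least 50 cells. Depth limits Wt1 and Sox9 most, with 3 and 1 UMIs in the wild-type Sertoli-like cells tested.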
